A study of Mus musculus with 99 samples.

Results

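Nucleus accumbens tissue of susceptible mice that did not respond to ketamine was compared with that of susceptible mice given saline. The groups were chosen by their labels: 3 ketamine non-responder and 3 susceptible saline libraries of the nucleus accumbens, which are 6 of the 25 libraries of this region and of 99 libraries in all. Every mouse in both groups had been through chronic social defeat stress, in which an aggressor attacks the mouse repeatedly, and had been classed as susceptible by its behaviour, so what differs by label is the drug given (ketamine or saline) and, in the treated mice, that the drug was recorded as not having worked. The labels give no strain, age, sex, dose, schedule or interval between treatment and dissection, and each library pooled the tissue of 2 mice. Beside these groups, 3 libraries of ketamine responders (susceptible mice given ketamine) and 5 of control mice given saline were used for further comparisons; the remaining accumbens libraries came from imipramine non-responders (4) and imipramine responders (3), both susceptible mice, and from resilient mice given saline (4). Since no susceptible mouse was classed as a responder or non-responder to saline, the response class and the drug cannot be told apart against the saline group, and the comparison with responders is the one that holds the drug constant.

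The nucleus accumbens is the ventral part of the striatum, where dopamine signals meet input from cortex, hippocampus and amygdala, and nearly all of its neurons are GABAergic projection neurons carrying dopamine D1 or D2 receptors. Ketamine blocks NMDA-type glutamate receptors. Stress hormones of the adrenal gland act in the brain through the glucocorticoid receptor, which switches on a known set of target genes in glia, vessels and neurons. Oligodendrocytes make the myelin around axons, from lipids such as galactosylceramide and proteins such as the one encoded by Mbp, and arise from precursors that carry the transcription factors Olig2 and Sox10.

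Reads were counted per gene, and 22472290 to 59187954 counts were obtained in the 6 libraries, against 14459028 to 59187954 over all 99. The deepest of the 6 was non-responder replicate 3. Levels are given as CPM, the counts scaled to the effective library size, and differences as log2 fold changes of non-responders over susceptible saline mice from edgeR, with their standard error (SE). In the accumbens 17718 genes passed the filter on low counts. With tissue pools as replicates, fewer cells of a type and less RNA per cell cannot be told apart.

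Markers of the tissue were present in every library, and they also varied within the groups. The 19 markers of striatal projection neurons summed to 6141, 9599 and 11379 CPM in non-responder replicates 1 to 3 and to 12987, 12499 and 8201 CPM in susceptible replicates 1 to 3. Markers of glutamatergic neurons of the cortex, which projection neurons of the accumbens lack, varied far more: all 9 were counted in each of the 6 libraries, and their sum was 64.2, 574 and 105 CPM in non-responder replicates and 53.4, 210.0 and 1301 CPM in susceptible replicates. Slc17a7, the vesicular glutamate transporter of cortical neurons, ranged from 3.17 to 453 CPM in non-responders and from 10.2 to 1054 CPM in susceptible mice. Non-responder replicate 1 therefore had the lowest striatal marker level, and susceptible replicate 3 the highest cortical marker level, of the 6. The part of either in the differences described here was not tested, and values without these libraries are given beside several of the results they move. Another library, the third of the imipramine responders, stood far from the other 24 on the first principal component (143.8, against -16.8 to 6.92) and entered the estimate of spread only.

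**Figure D1:**
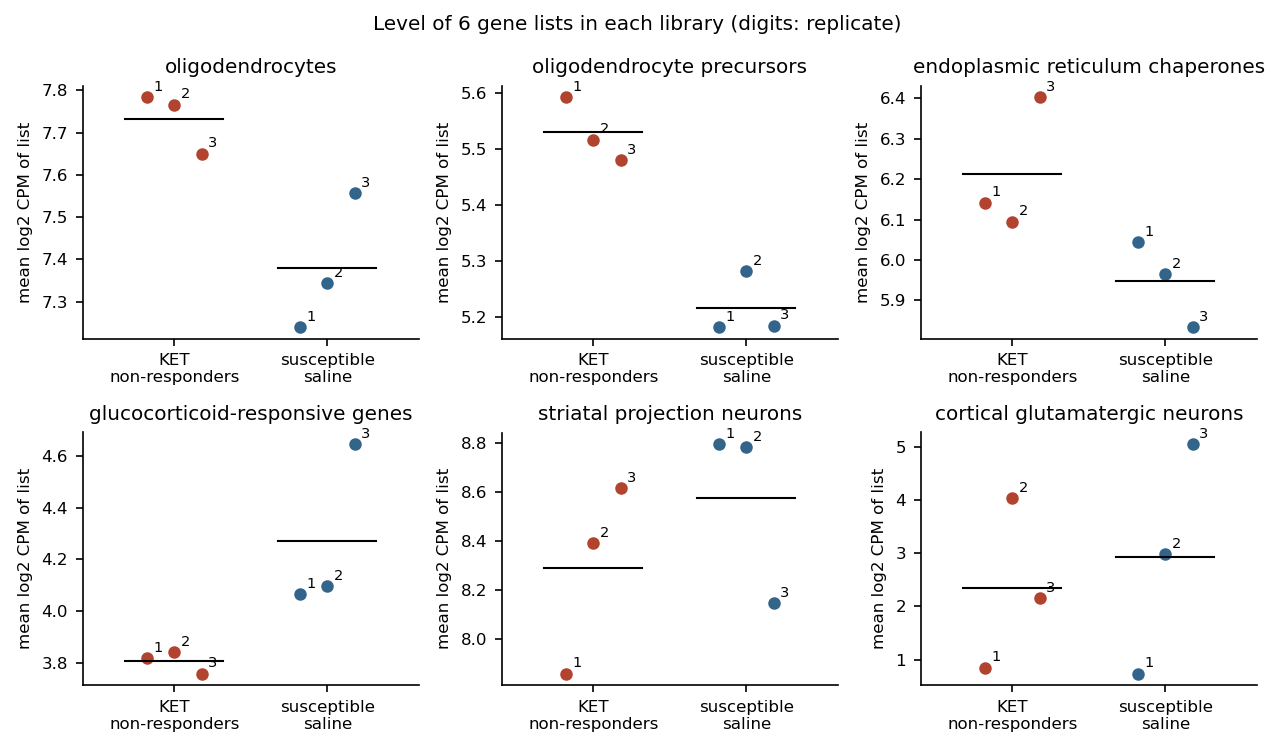
Mean log2 CPM of the members of 6 gene lists (y axis, its range set for each panel) in each of the 3 ketamine (KET) non-responder libraries and the 3 susceptible saline libraries of the nucleus accumbens. Digits are replicates and lines are group means. Oligodendrocyte, oligodendrocyte precursor and chaperone lists lay higher in every non-responder library, the glucocorticoid-responsive list lay lower in every one, and the striatal and cortical marker lists overlapped. Of the lists not plotted, that of GABA-A receptor subunits also lay higher in every non-responder library. Where nothing differs, 3 and 3 libraries separate in one direction or the other with a probability of 0.1 for each of the 34 lists.

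No gene passed an adjusted p of 0.05 between ketamine non-responders and susceptible saline mice (0% of 17718 genes called). The smallest adjusted p was 0.893, for Hif3a. At an unadjusted p below 0.05 there were 636 genes (3.59%), of which 376 had higher and 260 lower values in non-responders, where 885.9 would be below it if no gene differed. That count was 1409 when the imipramine responder library that stood apart was left out of the fit, 193 without non-responder replicate 1 and 1161 without non-responder replicate 2. DESeq2 called 1 gene, Hif3a (adjusted p = 0.0067). In simulated counts of this comparison (17607 genes), edgeR called 29 of 67 genes set to differ 1.5-fold, 48 of 67 set to differ 2-fold and 64 of 66 set to differ 4-fold. It also called 7 genes not set to differ. The genes set to differ had an average log2 CPM of at least 1. Shifts shared by many genes, such as those of the cortical markers here, were not simulated. The real libraries can thus yield fewer calls, and Plin4, at a log2 fold change of -2.32, was not called. An absence of calls leaves room for changes of any of these sizes. All values below are therefore descriptions of the 6 libraries, and no gene is said to have changed.

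**Figure D2:**
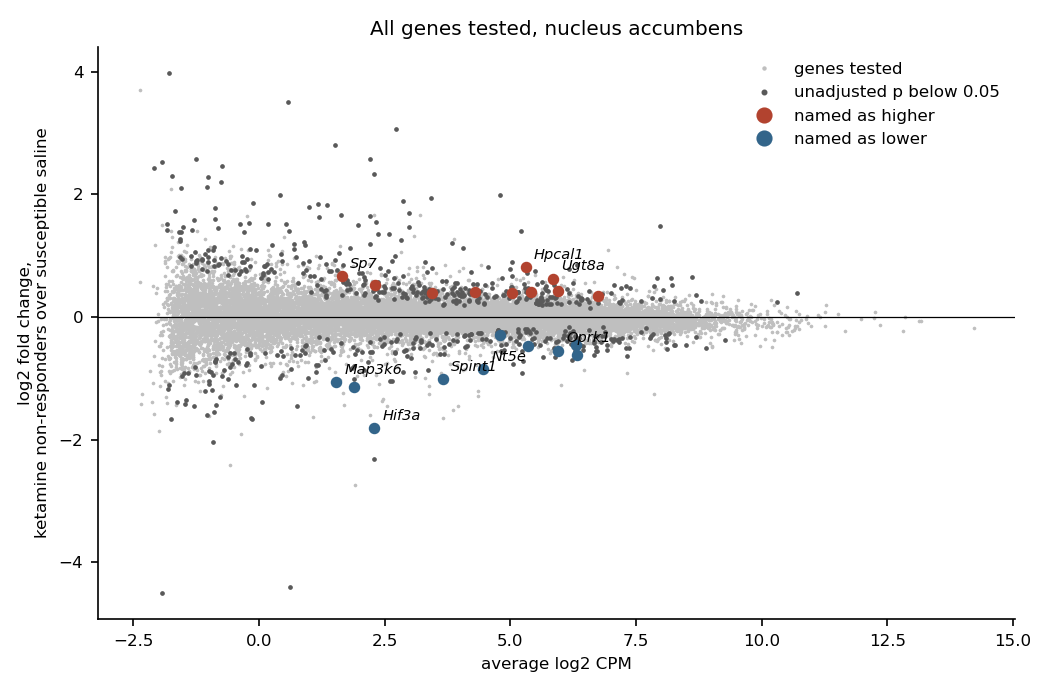
Log2 fold change of ketamine non-responders over susceptible saline mice (y axis) against average log2 CPM (x axis) for the 17718 genes tested in the nucleus accumbens. Darker points are the 636 genes at an unadjusted p below 0.05, and coloured points the 10 named genes in each direction. Hif3a at -1.81 is the lowest of the named genes.

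Targets that glucocorticoids induce had lower values in ketamine non-responders. Of 20 members tested, 18 had a negative log2 fold change and 2 a positive one (49.1% of all genes were positive), and the median was -0.44, against -0.003 over all genes tested. For 9 members every non-responder library lay below every susceptible library, where 3.89% of all genes did so. At an unadjusted p below 0.05 there were 4, all lower (1.47% of all genes were lower at that level): Hif3a, Plin4, Fkbp5 and Klf9.

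Hif3a (ENSMUSG00000004328), a member of the hypoxia-inducible factor family, stood at 2.87, 1.87 and 2.34 CPM in non-responders, against 4.92, 5.42 and 14.5 CPM in susceptible mice. The groups did not overlap, and susceptible replicate 3 was far above the other libraries. The log2 fold change was -1.81 (SE 0.36), and -1.13 without susceptible replicate 3. Fkbp5 (ENSMUSG00000024222), a co-chaperone that damps the glucocorticoid receptor, had 32.4, 37.5 and 39.8 CPM in non-responders, against 51.3, 54.7 and 66.0 CPM in susceptible mice (-0.65, SE 0.199). Here too every non-responder library lay below every susceptible one, and the spread within each group was narrower. Klf9, which encodes a zinc-finger repressor, stood at 100.1, 133.7 and 147.2 CPM in non-responders and 174.0, 165.2 and 199.5 CPM in susceptible mice (-0.50, SE 0.232).

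Plin4, which coats lipid droplets, had the lowest fold change of the list (-2.32, SE 0.696), and a single library set its size. It stood at 2.23, 2.26 and 2.51 CPM in non-responders and at 3.64, 3.44 and 28.2 CPM in susceptible mice, and its log2 fold change was -0.59 without susceptible replicate 3. Cdkn1a, an inhibitor of the cell cycle, had 9.29, 15.9 and 14.2 CPM in non-responders and 18.2, 20.1 and 24.9 CPM in susceptible mice (-0.68, SE 0.337). Nfkbia, the inhibitor of NF-kappaB, had 10.3, 11.0 and 11.9 CPM in non-responders and 12.6, 15.0 and 18.7 CPM in susceptible mice (-0.47, SE 0.244). For both the groups were separate, with susceptible replicate 3 again the highest. Sgk1, a kinase gene that glucocorticoids induce, overlapped between the groups, at 50.8, 65.9 and 76.2 CPM in non-responders and 82.4, 70.2 and 104.0 CPM in susceptible mice (-0.41, SE 0.256; -0.24 without susceptible replicate 3). The 2 members with positive values were Pdk4 (0.18, SE 0.142) and Angptl4 (0.23, SE 0.368), both of which act in the use of fat as fuel.

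The mean log2 CPM of the list was 3.82, 3.84 and 3.76 in non-responders, against 4.07, 4.10 and 4.65 in susceptible mice. Susceptible replicate 3, the library with the highest cortical marker level, was the highest. Without it the median log2 fold change of the list was -0.27 and 18 of 20 members were still negative; without non-responder replicate 1 the median was -0.32 with 19 negative. The sample numbers fall into 5 runs of consecutive numbers, whose meaning is not given, and 2 of these runs hold a library of each group. Within them the list differed by -0.26 (replicate 2 of each group) and by -0.89 (replicate 3 of each).

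The windows close to the start of these genes were searched for the exact palindrome that the glucocorticoid receptor binds. Only exact matches were counted, so the search says nothing of imperfect or more distant sites. The motif, AGAACA and TGTTCT with 3 bases of any kind between them, was read on both strands and lay within 250 bases before to 50 bases after the start in 1 of the 18 members that have a RefSeq promoter window (Sgk1), and in 0.0111% of 27025 mouse genes. The Sgk1 site, shown because it is the only member match, lies on chromosome 10 from base -189 to -175 of the start, with the fixed letters of the motif in capitals.
Sgk1: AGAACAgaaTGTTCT
A match is a description of the letters, and receptor binding was not measured.

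**Figure D3:**
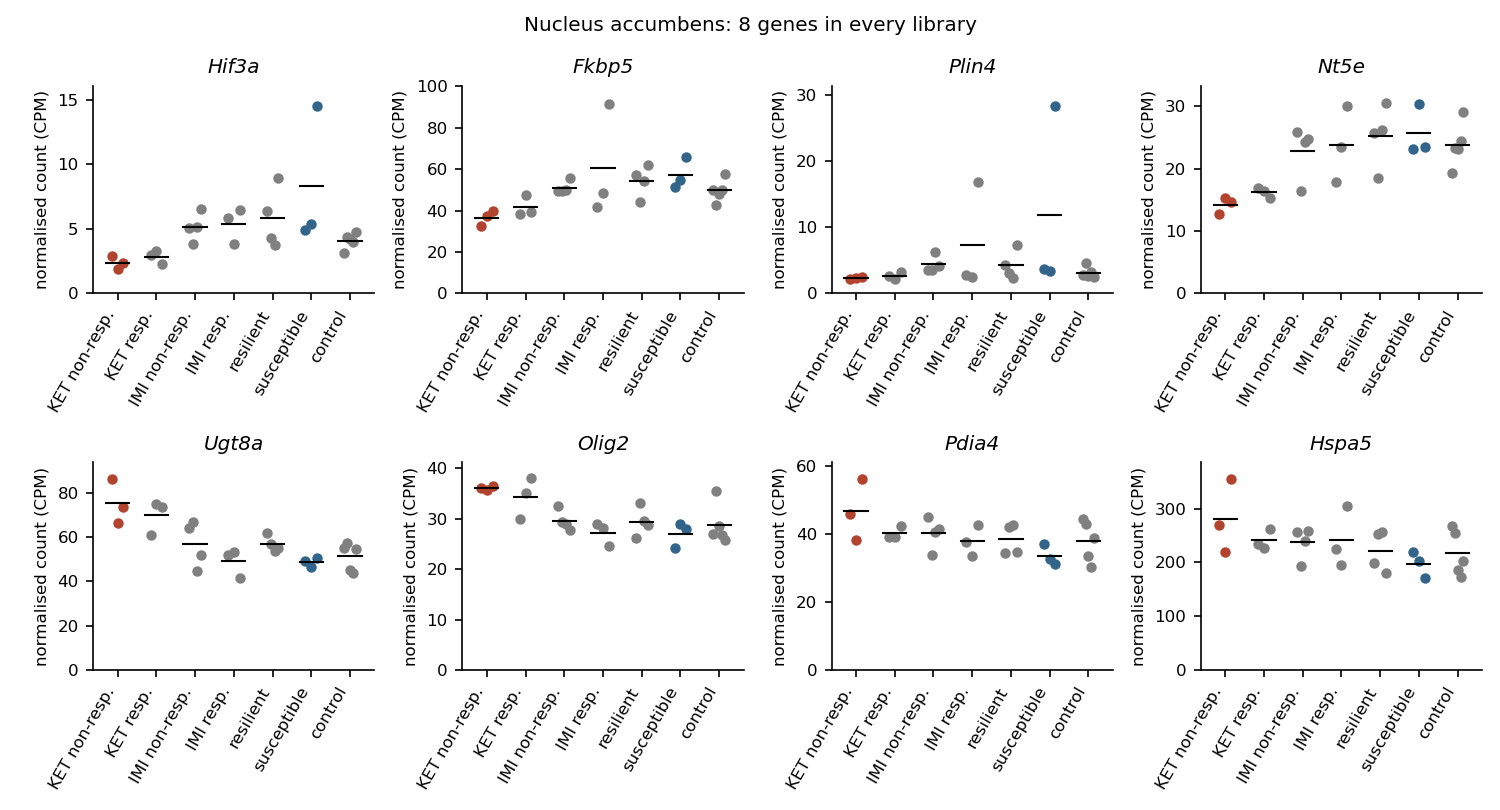
Normalised count (CPM, y axis from 0) of 8 genes in every nucleus accumbens library, by group (KET, ketamine; IMI, imipramine; resilient, susceptible and control mice received saline). Points are libraries and lines are group means. Hif3a, Fkbp5, Plin4 and Nt5e have their lowest group means in the ketamine groups, and Ugt8a and Olig2 their highest, among the 7 groups.

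Hif3a and Fkbp5 had lower group means in both ketamine groups than in susceptible saline and control mice. Hif3a averaged 2.36 ± 0.499 CPM in non-responders and 2.85 ± 0.543 CPM in responders, against 8.29 ± 5.42 CPM in susceptible saline mice (SD, n = 3 each) and 4.09 ± 0.604 CPM in control mice (n = 5). Fkbp5 averaged 36.6 ± 3.79 CPM in non-responders, 41.7 ± 4.89 CPM in responders, 57.3 ± 7.69 CPM in susceptible saline mice and 49.7 ± 5.38 CPM in control mice. In the order of the 7 group means of either gene, non-responders came lowest and responders next, and the libraries of these neighbours overlapped. The 2 ketamine comparisons share the susceptible saline libraries, so their likeness is not independent evidence. The list had a median log2 fold change of -0.12 in non-responders over ketamine responders and of -0.11 over control mice. Its mean log2 CPM was 3.81 ± 0.042 in non-responders and 3.95 ± 0.150 in responders. In susceptible saline mice it was 4.27 ± 0.326, and in control mice 3.94 ± 0.058. As a list, responders thus lay beside control mice, and their libraries (3.78 to 4.08) overlapped the susceptible ones (4.07 to 4.65). The median of susceptible saline over control mice was 0.19.

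Markers of oligodendrocytes had higher values in ketamine non-responders. All 12 members had a positive log2 fold change, with a median of 0.30, against -0.003 over all genes tested. For 8 of 12 every non-responder library lay above every susceptible library (4.38% of all genes), and 7 were higher at an unadjusted p below 0.05 (2.12% of all genes). Ugt8a (ENSMUSG00000032854), which makes the galactosylceramide of myelin, had 86.1, 66.2 and 73.5 CPM in non-responders, against 49.3, 46.4 and 50.4 CPM in susceptible mice. The lowest non-responder library was well above the highest susceptible one, and the log2 fold change was 0.63 (SE 0.145). Ermn, which encodes a cytoskeletal protein of myelinating cells, stood at 74.2, 56.9 and 68.8 CPM in non-responders and 44.1, 42.1 and 55.2 CPM in susceptible mice (0.50, SE 0.150).

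Genes of the myelin sheath itself had smaller fold changes than Ugt8a and Ermn. Cnp, an enzyme of the myelin sheath, had 490.4, 510.1 and 438.2 CPM in non-responders and 356.5, 384.9 and 383.1 CPM in susceptible mice (0.36, SE 0.110), so its groups were separate. Mbp, the basic protein that compacts myelin, overlapped, with 2681, 3083 and 2744 CPM in non-responders and 2033, 2286 and 3124 CPM in susceptible mice (0.19, SE 0.168), and susceptible replicate 3 was the highest of all 6. The other members, among them Mag, Mog, Mal, Aspa and Cldn11, lay between 0.21 (Mobp) and 0.47 (Opalin).

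The list named for oligodendrocyte precursors lay higher too, with all 7 of 7 members positive and a median of 0.26. For 4 of them the groups did not overlap (4.38% of all genes lay above without overlap). Olig2 (ENSMUSG00000039830), the transcription factor that specifies the lineage, had 36.2, 35.8 and 36.6 CPM in non-responders, against 24.3, 29.0 and 28.0 CPM in susceptible mice (0.42, SE 0.120). Sox10, which maintains it, had 64.8, 68.9 and 64.9 CPM in non-responders and 49.1, 55.0 and 54.2 CPM in susceptible mice (0.33, SE 0.104). The non-responder libraries were close together and all above the susceptible ones. Gpr17, a receptor of cells committed to become oligodendrocytes, stood at 76.1, 69.7 and 74.5 CPM in non-responders and 52.8, 54.6 and 45.4 CPM in susceptible mice (0.53, SE 0.182). Pdgfra, the growth factor receptor of precursors, overlapped (0.26, SE 0.174), and C1ql1 had the lowest value of the list (0.20). As the list holds factors of the whole lineage, it does not tell precursors from oligodendrocytes.

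The mean log2 CPM of the oligodendrocyte list was 7.78, 7.77 and 7.65 in non-responders, against 7.24, 7.34 and 7.56 in susceptible mice, and that of the precursor list was 5.59, 5.52 and 5.48, against 5.18, 5.28 and 5.18. Leaving out each library in turn gave oligodendrocyte medians from 0.22 (without susceptible replicate 1) to 0.41 (without susceptible replicate 3), each with 12 of 12 members positive. Within the 2 runs of sample numbers that hold both groups, the oligodendrocyte list differed by 0.42 (replicates 2) and 0.09 (replicates 3), and the precursor list by 0.23 and 0.30. Striatal neuron markers differed by -0.39 between the replicates 2 and by 0.47 between the replicates 3. The part of the striatal level in the oligodendrocyte and precursor differences was not tested. The level of striatal neuron markers was lower in non-responders on average (median -0.29), but not without overlap, and without non-responder replicate 1, the library with the lowest striatal level, the oligodendrocyte median was 0.30 and the striatal one -0.13. Other glial markers had smaller medians, and that of astrocytes rested on 1 library: 6 of 10 astrocyte markers were positive (median 0.03, and 0.18 without susceptible replicate 3; 0.26 between the replicates 2 and -0.36 between the replicates 3), and 11 of 14 microglial markers (median 0.12), of which Csf1r, the receptor that keeps microglia alive, had 105.9, 113.4 and 124.9 CPM in non-responders and 99.5, 98.0 and 96.0 CPM in susceptible mice (0.23, SE 0.094).

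Against control mice the oligodendrocyte list had a median log2 fold change of 0.42 and the precursor list 0.22 in non-responders, and against ketamine responders 0.02 and 0.01. The mean log2 CPM of the oligodendrocyte list was 7.73 ± 0.072 in non-responders (SD, n = 3) and 7.71 ± 0.206 in ketamine responders (n = 3), against 7.38 ± 0.161 in susceptible saline mice (n = 3) and 7.29 ± 0.122 in control mice (n = 5). In resilient mice given saline it was 7.45 ± 0.115 (n = 4). Non-responders thus stood beside responders and above each of these saline groups, by more than the SDs of the groups.

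Chaperones of the endoplasmic reticulum, which fold newly made membrane and secreted proteins, also had higher values in non-responders. All 13 members were positive, with a median of 0.21, 6 of them without overlap (4.38% of all genes), and 3 were higher at an unadjusted p below 0.05 (2.12% of all genes): Pdia4, Hspa5 and Dnajc3. Hspa5 (ENSMUSG00000026864), the main chaperone of the compartment, also called BiP, had 269, 219 and 355 CPM in non-responders, against 219, 203 and 171 CPM in susceptible mice (0.51, SE 0.198). Its lowest non-responder value and highest susceptible value lay next to each other, and the log2 fold change was 0.30 without non-responder replicate 3. Pdia4, a disulfide isomerase, had 46, 38.2 and 56.4 CPM in non-responders and 37.2, 32.7 and 31.1 CPM in susceptible mice (0.48, SE 0.153; 0.31 without non-responder replicate 3). Sdf2l1, a chaperone partner, had 7.51, 8.71 and 11.6 CPM in non-responders and 6.74, 6.68 and 6.70 CPM in susceptible mice (0.47, SE 0.270).

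Cells induce these chaperones together through the ER stress response element, in which 9 bases of any kind separate CCAAT from CCACG. Read on both strands, it lay in the 300-base promoter window of 6 of the 11 members with a RefSeq window, and in 37 of 27025 mouse genes (0.137%). The sites are shown because these genes are known targets of the element; with every member of the list positive, whether a gene carries it says nothing of its direction here. The sites are given 5′ to 3′ as CCAAT to CCACG, with the fixed letters in capitals, and their positions count from the gene's start (Hspa5 on chromosome 2 from -65 to -47, Hsp90b1 on chromosome 10 from -212 to -194 and, on the opposite strand, from -107 to -89, Pdia6 on chromosome 12 from -98 to -80, Calr on chromosome 8 from -162 to -144 on the opposite strand, Creld2 on chromosome 15 from -126 to -108 on the opposite strand, Dnajc3 on chromosome 14 from -105 to -87).
Hspa5: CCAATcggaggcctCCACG
Hsp90b1, first site: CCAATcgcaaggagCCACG
Hsp90b1, second site: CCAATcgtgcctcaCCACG
Pdia6: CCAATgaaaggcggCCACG
Calr: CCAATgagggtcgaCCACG
Creld2: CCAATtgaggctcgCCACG
Dnajc3: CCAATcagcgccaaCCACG
The 250 bases before the start of Hspa5, at chr2:34771840-34772089 on the plus strand of GRCm38.p6 (RefSeq; the counts themselves were made on NCBIM37), hold 1 such element, in capitals.
Hspa5 promoter: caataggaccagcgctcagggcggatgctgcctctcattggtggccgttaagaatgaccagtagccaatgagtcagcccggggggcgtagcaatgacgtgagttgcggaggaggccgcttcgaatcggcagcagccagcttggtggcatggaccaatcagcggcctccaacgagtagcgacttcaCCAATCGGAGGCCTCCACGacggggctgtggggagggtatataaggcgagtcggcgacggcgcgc
The members with the motif had log2 fold changes of 0.51 (Hspa5), 0.33 (Pdia6), 0.28 (Dnajc3), 0.20 (Calr), 0.20 (Hsp90b1) and 0.12 (Creld2), within the range of the whole list (0.09 to 0.51).

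The mean log2 CPM of the chaperone list was 6.14, 6.09 and 6.40 in non-responders, against 6.04, 5.96 and 5.83 in susceptible mice. Without non-responder replicate 3, the highest and the deepest library, the median was 0.16 with 11 of 13 positive. Within the runs of sample numbers the list differed by 0.13 (replicates 2) and 0.57 (replicates 3). Chaperones of the cytosol and mitochondria, which answer to heat shock instead, had a median of 0.06 with 9 of 12 positive.

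**Figure D4:**
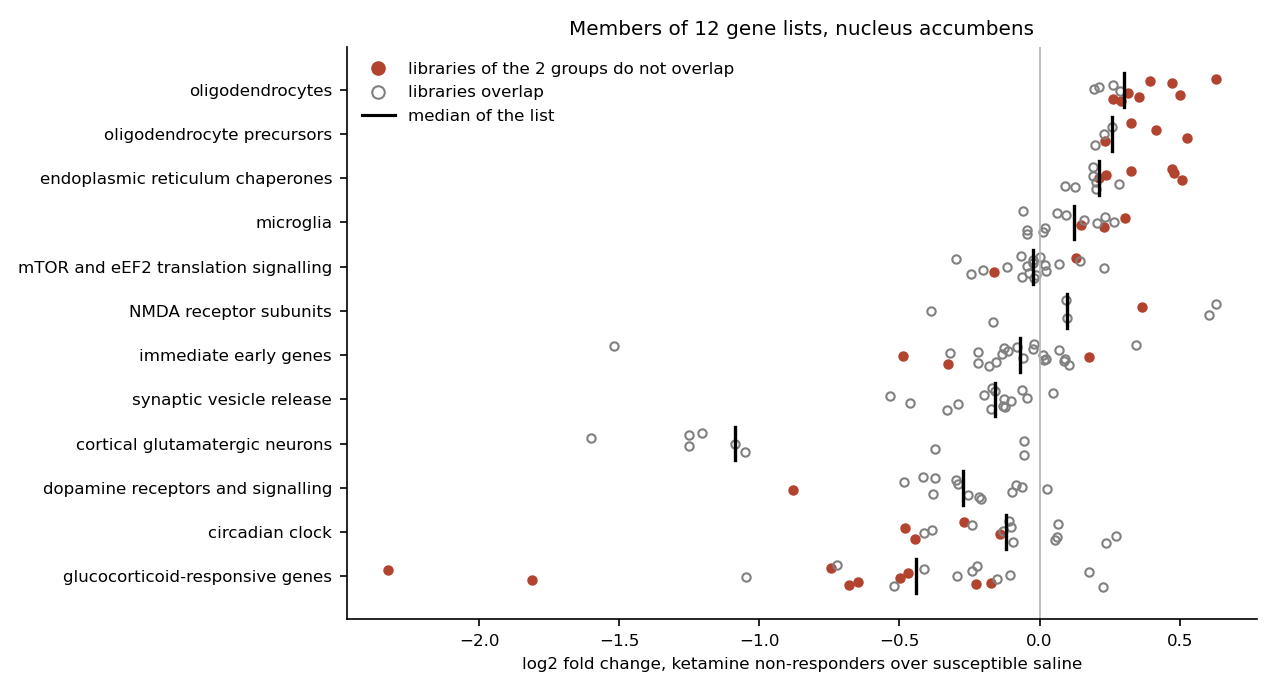
Log2 fold change of ketamine non-responders over susceptible saline mice (x axis) for each tested member of 12 gene lists (rows). Filled points are members whose libraries do not overlap between the groups, open points the others, and bars the list medians. All 12 oligodendrocyte, 7 precursor and 13 chaperone genes lie right of 0, and 18 of 20 glucocorticoid-responsive genes lie left of it.

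Clock genes, whose transcription cycles over the day, were mixed. Of 16 members 11 were negative and 5 positive (median -0.12), and 4 were lower at an unadjusted p below 0.05 (1.47% of all genes). Nr1d1, a repressor of the clock loop, had 65.3, 77.5 and 72.7 CPM in non-responders, against 96.4, 98.7 and 105.2 CPM in susceptible mice (-0.48, SE 0.184), without overlap. The others were Dbp (-0.41, SE 0.169), an output regulator, Npas2 (-0.39, SE 0.147; -0.23 without non-responder replicate 1), a partner of the activator BMAL1, and Ciart (-0.45, SE 0.213), a repressor. Arntl, which encodes BMAL1, and Cry1 had positive values of 0.24 (SE 0.140) and 0.27 (SE 0.166). The hour of dissection is not in the labels.

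Receptors and signalling molecules of the dopamine system had lower values, 13 of 14 members with a median of -0.27. Only 1 member was free of overlap, where 3.89% of all genes lay below without overlap. It was Drd4, at 0.21, 0.27 and 0.17 CPM in non-responders and 0.31, 0.29 and 0.59 CPM in susceptible mice, near the filter. Drd1 stood at 173, 209 and 251 CPM in non-responders and 299, 277 and 180 CPM in susceptible mice (-0.26, SE 0.180), and Drd2 at 119, 199 and 241 CPM in non-responders and 267, 288 and 174 CPM in susceptible mice (-0.38, SE 0.225; -0.14 without non-responder replicate 1). Both receptor genes were lowest in non-responder replicate 1 and, in the susceptible group, in replicate 3, the order of the striatal marker list as a whole. The dopamine list had a median of -0.11 without non-responder replicate 1 and -0.46 without susceptible replicate 3, and it differed by -0.34 between the replicates 2 and 0.33 between the replicates 3. Several members of this list, such as Drd1, Drd2, Rgs9, Pde10a, Ppp1r1b, Adora2a and Adcy5, are also among the striatal markers, so the share of striatal neurons and the level per neuron cannot be told apart here.

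Among opioid and peptide genes the values went both ways (7 of 15 positive, median -0.23), and the median was 0.15 without susceptible replicate 3 and 0.05 without susceptible replicate 2. Oprk1 (ENSMUSG00000025905), the kappa opioid receptor on which dynorphin acts, had 36.4, 50.0 and 55.3 CPM in non-responders, against 73.8, 76.0 and 57.8 CPM in susceptible mice (-0.55, SE 0.155). The groups were just separate, and within the replicates 3 the values nearly met. Crh, corticotropin-releasing hormone, had 13.5, 5.67 and 5.19 CPM in non-responders and 2.40, 2.11 and 4.96 CPM in susceptible mice (1.36, SE 0.509), with non-responder replicate 1 the highest and a value of 0.79 without it. Pdyn and Penk, the precursors of dynorphin and enkephalin, were at -0.24 (SE 0.29) and -0.23 (SE 0.35).

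The targets of ketamine and the translation pathway discussed for its action showed no common direction. Of 7 NMDA receptor subunits 5 were positive and 2 negative (median 0.10). Grin1, the obligatory subunit, had 261, 368 and 370 CPM in non-responders and 375, 384 and 363 CPM in susceptible mice (-0.17, SE 0.143). Grin2a and Grin2b, the main partner subunits of the forebrain, were at 0.10 (SE 0.543) and 0.61 (SE 0.47). Grin2c, known mostly from cerebellum and astrocytes, was the member at an unadjusted p below 0.05 (1.47% of all genes were lower at that level). It had 35.3, 68.1 and 58.8 CPM in non-responders and 62.6, 68.7 and 81.0 CPM in susceptible mice (-0.39, SE 0.169; -0.16 without non-responder replicate 1), with overlapping groups. Of 20 genes of mTOR and eEF2 signalling, 7 were positive and 13 negative (median -0.02). Mtor had 148, 160 and 161 CPM in non-responders and 156, 163 and 165 CPM in susceptible mice (-0.04, SE 0.223), and Eef2k, the kinase that slows elongation, 30.1, 29.3 and 29.5 CPM in non-responders and 33.3, 31.2 and 35.0 CPM in susceptible mice (-0.16, SE 0.121). The AMPA receptor list had a median of -0.05 (5 of 14 positive) and Gria1 a value of 0.06 (SE 0.119).

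Genes that neurons switch on with activity showed no common direction, with 9 of 24 positive and a median of -0.07. Fos stood at 5.4, 7.48 and 3.28 CPM in non-responders and 5.86, 3.73 and 5.55 CPM in susceptible mice (0.09, SE 0.488). Arc, at 30.4, 52.8 and 33.0 CPM in non-responders and 54.3, 41.5 and 35.6 CPM in susceptible mice (-0.18, SE 0.326), and Egr1 (-0.15, SE 0.255) overlapped as well. All 3 changed sign when single libraries were left out. Bdnf, the neurotrophin that reaches the accumbens mainly in cortical axons, had 0.54, 6.21 and 1.01 CPM in non-responders and 0.58, 1.65 and 10.8 CPM in susceptible mice (-0.76, SE 1.05). Its libraries ranked like the cortical markers, high in non-responder replicate 2 and susceptible replicate 3, and its value was 1.16 without susceptible replicate 3. Nr4a2 (-1.52, SE 1.43) had 1.6, 16.9 and 5.10 CPM in non-responders and 0.98, 6.19 and 60.4 CPM in susceptible mice, in the same order. Of the 9 cortical markers themselves all were negative (median -1.09), and all were positive without susceptible replicate 3 (median 0.90).

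Several large gene groups lay slightly lower in non-responders with no member at an unadjusted p below 0.05. They were cytosolic ribosomal proteins (28 of 29 negative, median -0.13), nuclear genes of oxidative phosphorylation (24 of 25, -0.16), genes of the mitochondrial genome (11 of 12, -0.11), synaptic vesicle genes (14 of 15, -0.16) and cholesterol synthesis (13 of 15, -0.10). The synaptic vesicle median was 0.01 without susceptible replicate 3, with 8 of 15 members positive. GABA-A receptor subunits had 9 of 12 positive (median 0.13). The mean log2 CPM of this list was 6.73, 6.56 and 6.57 in non-responders, against 6.50, 6.43 and 6.47 in susceptible mice. Gabrg1 and Gabrb1, the 2 higher at an unadjusted p below 0.05 (2.12% of all genes), were at 0.74 (SE 0.306) and 0.54 (SE 0.235), and both were highest in non-responder replicate 1. Without that library they were at 0.31 and 0.36, and the list median was 0.02.

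The remaining lists are given by their medians, which were -0.01 for metabotropic glutamate receptors, -0.02 for serotonin and adrenergic receptors, -0.14 for neurotrophins and their receptors, 0.07 for Kcnq and Hcn channels and 0.08 for the interferon response. Among markers of other cells they were 0.03 for interneurons, 0.17 for endothelial cells, 0.02 for mural and meningeal cells, 0.04 for choroid plexus, 0.18 for thalamus and hypothalamus, 0.52 for ependymal cells and 0.35 for red blood cells. In none of the last 2 lists did a member separate the groups, and the ependymal median was 0.07 without non-responder replicate 1 and that of red blood cells 0.05 without non-responder replicate 3. The endothelial median ranged from 0.03 without non-responder replicate 3 to 0.35 without susceptible replicate 3, and that of thalamus and hypothalamus was 0.05 without non-responder replicate 1. Calb2, the calretinin gene of a class of interneurons, was at 36.4, 16.3 and 9.69 CPM in non-responders and 6.92, 9.67 and 10.3 CPM in susceptible mice (1.21, SE 0.423), again highest in non-responder replicate 1 and at 0.53 without it.

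Among single genes, the 10 with the smallest p in each direction, no overlap between groups and an average log2 CPM of at least 1 were taken as named genes. Since the comparison itself chose them, their values are a description. Beside Ugt8a, those with higher values were led by Mcam (ENSMUSG00000032135), an adhesion molecule best known from vessel walls, with 38.9, 41.1 and 39.5 CPM in non-responders, against 28.7, 30.6 and 31.2 CPM in susceptible mice (0.40, SE 0.091). Gatm (ENSMUSG00000027199), which makes the precursor of creatine, had 132, 121 and 124 CPM in non-responders and 93.7, 97.5 and 106.2 CPM in susceptible mice (0.34, SE 0.093). Sp7, a transcription factor best known from bone, stood at 4.13, 4.16 and 3.69 CPM in non-responders and 2.48, 2.56 and 2.46 CPM in susceptible mice (0.67, SE 0.156). In each of the 3 the libraries of a group were close together. The others were Hpcal1, a neuronal calcium sensor (0.81, SE 0.232; 0.50 without non-responder replicate 1), Insc, an adaptor of spindle orientation (0.53, SE 0.139), Tmeff2, a transmembrane protein (0.43, SE 0.114), Gab1, a docking protein of growth factor receptors (0.41, SE 0.108), Tspan15, a tetraspanin that binds the protease ADAM10 (0.41, SE 0.101), and the histone deacetylase Hdac8 (0.39, SE 0.110).

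Of the genes with lower values, Nt5e (ENSMUSG00000032420), the enzyme that makes extracellular adenosine from AMP, came after Hif3a. It had 12.7, 15.3 and 14.7 CPM in non-responders, against 23.2, 30.4 and 23.4 CPM in susceptible mice (-0.85, SE 0.197). Spint1, an inhibitor of membrane-bound serine proteases, had 5.10, 9.25 and 7.97 CPM in non-responders and 13.0, 18.2 and 13.8 CPM in susceptible mice (-1.01, SE 0.265). In both the highest non-responder library stood well below the lowest susceptible one. Map3k6 (-1.06, SE 0.303; -0.65 without susceptible replicate 3), a stress kinase, had 1.6, 1.87 and 1.86 CPM in non-responders and 2.88, 2.72 and 5.60 CPM in susceptible mice. Further genes were Nlrp10 (-1.14, SE 0.331), Ankrd33b (-0.61, SE 0.167), Usp3, a deubiquitinase of histones (-0.47, SE 0.127), Sun2, which links the nucleus to the cytoskeleton (-0.45, SE 0.132), and Xpc, which finds DNA damage for excision repair (-0.29, SE 0.080).

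Non-responders were compared with ketamine responders to ask what accompanies the failure of the drug, as both groups received it. No gene was called (0% of 17718), 69 genes were at an unadjusted p below 0.05 (0.389%; 217 without the imipramine responder library that stood apart), and DESeq2 called 0 with 64 at that level. Leaving out 1 library of either group gave 62 to 182 such genes. Ugt8a, Nt5e and Hspa5, which the comparison with susceptible saline mice had picked, had smaller fold changes here. Such a choice alone makes smaller values in another comparison likely, so these are a description. Ugt8a averaged 75.3 ± 10.0 CPM in non-responders and 69.8 ± 7.81 CPM in responders (0.11, SE 0.144), Nt5e 14.2 ± 1.32 CPM in non-responders and 16.2 ± 0.836 CPM in responders (-0.19, SE 0.197), and Hspa5 281 ± 68.6 CPM in non-responders and 241 ± 18.4 CPM in responders (0.22, SE 0.198; SD, n = 3 each). The chaperone list had a median of 0.09, and one of 0.13 in responders over susceptible saline mice. The dopamine list had a median of -0.21 in non-responders over responders, beside -0.22 for striatal neuron markers, and the immediate early list one of -0.26. Arc was at -0.45 and Fos at -0.27. The mean log2 CPM of the dopamine list was 6.98, 7.46 and 7.64 in non-responders and 7.64, 7.58 and 7.51 in responders. That of the immediate early list was 3.83, 4.36 and 4.20, against 4.05, 4.77 and 4.20. In both lists the groups overlapped, and non-responder replicate 1 was the lowest library. The genes named by the smallest p were Ide, the insulin-degrading enzyme (0.40), Nedd1 (0.34) and the mRNA export factor Nxf1 (0.20) on the higher side, and Ninl (-0.46), the chemokine scavenger Ackr2 (-0.43) and Cox11, an assembly factor of cytochrome oxidase (-0.32), on the lower side.

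Compared with control mice given saline, non-responders again had 0 called genes (0% of 17718), with 501 at an unadjusted p below 0.05 (2.83%), 189 without non-responder replicate 1 and 821 without non-responder replicate 3. Without the imipramine responder library that stood apart there were 1041 and 1 gene was called, Serpinb1a, a protease inhibitor of immune cells; DESeq2 called 0, with 543 at that level. The smallest p was that of Gatm, which averaged 126 ± 5.81 CPM in non-responders (SD, n = 3) and 97.4 ± 6.44 CPM in controls (n = 5), a log2 fold change of 0.37 (SE 0.082). Ugt8a (0.56, SE 0.127) and Lpar1, a lysophosphatidic acid receptor gene of myelinating cells (0.53), were the other genes named as higher. Nt5e averaged 14.2 ± 1.32 CPM in non-responders and 23.8 ± 3.55 CPM in controls (-0.74, SE 0.180), and Nlrp10 (-1.11) and Slc22a3, a transporter of monoamines (-0.65), were the others named as lower. Fkbp5 lay at -0.44 (SE 0.180) and Hif3a at -0.79 (SE 0.327), so both were below control as well as below susceptible saline mice. Chaperones had a median of 0.19, dopamine genes of -0.36 (striatal neuron markers of -0.40) and immediate early genes of -0.29 (Fos -0.68, Arc -0.84). By library, the immediate early list had a mean log2 CPM of 3.83, 4.36 and 4.20 in non-responders and 4.24 to 4.65 in controls. The dopamine list had 6.98, 7.46 and 7.64 in non-responders and 7.60 to 7.91 in controls. Both lists overlapped between the groups. The mean log2 CPM of the chaperone list in non-responder replicates 1 and 2 (6.14 and 6.09) lay within the control range of 5.84 to 6.15, and only replicate 3 (6.40) lay above it.

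Whether the difference between non-responders and susceptible saline mice was particular to the accumbens was tested against its mean in the prefrontal cortex, ventral hippocampus and basolateral amygdala, in a fit of all 99 libraries. No gene was called among 19024 tested (0%), and 798 were at an unadjusted p below 0.05 (4.19%). The smallest adjusted p was 0.130, for the thiamine transporter gene Slc19a2 (difference 0.41). It had 18.6, 17.5 and 16.5 CPM in accumbens non-responders and 15.1, 14.2 and 14.5 CPM in accumbens susceptible mice (0.26, SE 0.095), and log2 fold changes of -0.11 in the prefrontal cortex, -0.20 in the hippocampus and -0.13 in the amygdala. The kinase gene Stk32b (1.70) and the RNA-binding protein gene Rbm11 (0.62) were the next higher, and Spint1 (-1.26), Scarb1, a lipoprotein receptor (-0.41), and Smg5, a factor of RNA decay (-0.38), the lower ones named by the smallest p.

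The count of calls rested on single libraries: edgeR called 1 gene without non-responder replicate 2 (Smug1, a DNA repair enzyme) and 4 without non-responder replicate 3 (Stk32b, Rbm11, Slc19a2 and Hpcal1). The count at an unadjusted p below 0.05 was 276 without non-responder replicate 1, 1691 without replicate 2 and 1219 without susceptible replicate 3.

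The lists fell into those with like and unlike values in the other regions. The median of the glucocorticoid-responsive list was -0.44 in the accumbens, -0.15 in the prefrontal cortex, -0.37 in the hippocampus and -0.27 in the amygdala. Hif3a was at -1.40 (SE 0.44), -2.06 (SE 0.45) and -1.72 (SE 0.43) in the prefrontal cortex, hippocampus and amygdala, against -1.81 in the accumbens (difference -0.08, SE 0.50). Chaperones had medians of 0.21 in the accumbens, 0.14 in the prefrontal cortex, 0.33 in the hippocampus and 0.24 in the amygdala. The oligodendrocyte list was at 0.30 in the accumbens, 0.24 in the prefrontal cortex, -0.10 in the hippocampus and 0.04 in the amygdala, and Ugt8a at 0.14, 0.05 and 0.05 outside the accumbens (difference 0.55, SE 0.20). Nt5e was at -0.24, -0.12 and -0.04 there (difference -0.72, SE 0.28). Hif3a, Ugt8a and Nt5e were named by their accumbens difference, which is itself part of the region difference. The sizes of their region differences are thus no separate evidence. None of these region differences passed the test over all genes. It is not recorded if 1 mouse gave tissue to several regions, and if so the fit treats pools of the same animals as independent.

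**Figure D5:**
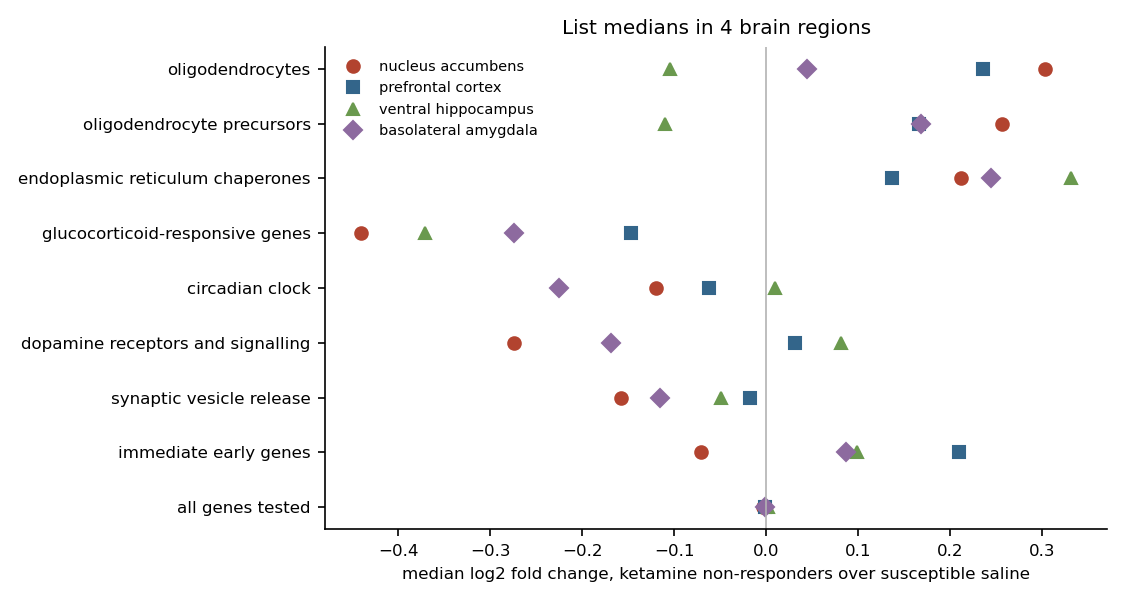
Median log2 fold change of ketamine non-responders over susceptible saline mice (x axis) for 8 gene lists and for all genes tested (rows) in 4 brain regions. Glucocorticoid-responsive genes lie left of 0 and chaperones right of 0 in each region, while oligodendrocyte markers lie at 0.30 in the nucleus accumbens and -0.10 in the ventral hippocampus.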

How the data were processed

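Poly-A RNA of 99 mouse brain tissue pools was sequenced as 50 bp pairs with a kit that does not mark strand, so reads of a gene and of an antisense partner cannot be told apart. The authors deposited 1 table of raw counts of reads per Ensembl gene (37991 genes), not normalized. The submitters' processing notes name TopHat2 2.0.9, Bowtie2 2.1.0, HTSeq 0.6.0 and the build NCBIM37. How reads were assigned to genes, and which annotation was used, is not given in the sources used here. Each column was matched to its sample through the number in the title, and 0 columns remained unmatched. Symbols were found by exact ID for 32919 genes (86.6%).

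The counts were fitted in R 4.3.3 with edgeR 4.0.16, a mean for each of the 7 accumbens groups over 25 libraries, so that all groups share the estimate of spread. Genes were kept with filterByExpr (minimum count 10), scaled with TMM, compared with the robust quasi-likelihood F-test, and called at a Benjamini-Hochberg adjusted p below 0.05 over all genes tested. The region difference came from 1 fit of all 99 libraries with 28 groups. List levels are means of log2 CPM with a prior count of 2. The 34 gene lists (21 of processes, 13 of markers) are described by counts and medians, with no test; 11 of their symbols were below the filter. The groups, members and lists were chosen with earlier results of these data known.

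Genes were named by a rule: up to 10 per direction (called genes first, otherwise the smallest p with groups that do not overlap, an average log2 CPM of at least 1 and no clone-like symbol), the 2 members of each list with the smallest p, genes that are always given (Fos, Arc, Egr1, Bdnf, Fkbp5, Sgk1, Drd1, Drd2, Grin1, Grin2a, Grin2b, Gria1, Mtor and Eef2k) and 3 per direction for each further comparison. Other members of lists are named to show a list's range, and a few genes that the rule or the lists hold are not reported here by name. Among 34 pairs of accumbens libraries of 1 group, 0 were identical, and chi-square per degree of freedom was at least 6.90, so precision was set by the spread between libraries. The fit was tested on simulated data. Alternatives were median-ratio scaling, no filter, no robust estimation, DESeq2 1.42.0, the runs of sample numbers as a covariate, the compared groups alone, and leaving out each library in turn. Leaving out the third imipramine responder library, and single libraries in the region fit, was chosen after seeing the data. Motifs were searched in RefSeq windows of GRCm38.p6, 250 bases before to 50 after each gene's start.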

Additional observations from a re-analysis of the deposited data

Results flagged for a closer look

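In 61 sets of 4 or 5 accumbens libraries looked at for a library far from the rest (the plotted genes in each group of that size, and the list levels in control mice), 4 had one, and chance gives about 1 in 20. Olig2 stood at 35.6 CPM in 1 control library, against 25.8 to 28.5 CPM in the other 4, so this control lies just below the range of the non-responders. In imipramine non-responders, Nt5e was at 16.4 CPM in 1 library, against 24.3 to 25.8 CPM in the others, and Fkbp5 at 55.5 CPM, against 49.4 to 49.8 CPM. The mean log2 CPM of astrocyte markers was 6.84 in 1 control library and 7.03 to 7.08 in the other 4.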

How the results depend on the processing

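edgeR called 0 genes between non-responders and susceptible saline mice under each alternative run with it, and DESeq2 called 1 (log2 fold change of Hif3a, -1.82). The count at an unadjusted p below 0.05, 636 as reported, became 1409 without the third imipramine responder library and 193 to 1161 when 1 compared library was left out. Of the 1409, 630 were among the 636, and of the 193 without non-responder replicate 1, 154 were. Calls against control mice became 1 without the third imipramine responder library, and calls for the region difference 0 to 4 when 1 library was left out. Of 1455 alternative values of single genes, 1437 kept their sign and their side of the threshold. The 17 that changed sign all came from leaving out 1 library, and with 1 library left out in turn the log2 fold change ran from -0.51 to 0.030 for Cacng7, -0.46 to 0.012 for Snap25, -2.73 to 0.96 for Tbr1, -0.35 to 0.012 for Col1a1, -0.017 to 0.37 for Col1a2, -0.22 to 0.35 for Fos, -0.46 to 0.0021 for Arc, -0.33 to 0.066 for Egr1, -2.44 to 1.16 for Bdnf, -0.076 to 0.27 for Grin2a, -0.055 to 0.17 for Gria1, -0.19 to 0.022 for Ide, -0.022 to 0.14 for Nxf1 and -0.32 to 0.13 for Ackr2. Of 455 medians (the lists and all genes, over the alternatives), 448 moved by less than the spread between libraries, but 13 of 34 list medians changed sign when 1 library was left out, 10 of them below 0.1 in size. The other 3 were cortical neurons (-1.09, and 0.90 without susceptible replicate 3), opioid system and neuropeptides (-0.23, and 0.15 without it) and synaptic vesicle release (-0.16, and 0.01 without it). The cause of these shifts was not tested. No paired analysis was possible because the labels give no replicate numbers that groups share. With the runs of sample numbers as a covariate, 503 genes were at an unadjusted p below 0.05, of which 417 were among the 636. With 3 libraries of 2 mice each per group, the median SE was 0.20 on the log2 scale. The estimate of spread is shared by all 7 groups. It includes the third imipramine responder library, without which the count at an unadjusted p below 0.05 was 1409. How far spread, that library or depth limits the calls was not tested, and genes of few counts, such as Drd4, have little depth.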

Other observations

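Transcripts of pituitary hormones, chosen after their values were seen, were counted in the accumbens libraries at very low levels. Gh, growth hormone, had 13, 1 and 0 reads in non-responders, against 51, 64 and 83 reads in susceptible mice, which is 0.39, 0.030 and 0 CPM in non-responders and 2.26, 2.08 and 3.52 CPM in susceptible mice. Prl, prolactin, had 1, 0 and 0 reads in non-responders and 5, 6 and 10 reads in susceptible mice, so no fold is given. In ketamine responders Gh lay between 0 and 0.43 CPM, and in imipramine responders between 0.96 and 6.97 CPM. Of the 5 control libraries 1 was at 0, and the other 4 lay between 1.35 and 2.69 CPM. Pomc, another pituitary gene that is also expressed in the brain, overlapped, with 2.81, 1.75 and 1.48 CPM in non-responders and 2.17, 3.34 and 2.88 CPM in susceptible mice (log2 fold change -0.49, SE 0.479).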
